A study of Mus musculus with 12 samples.

Results

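Cck, Gap43, Msln, Ramp3, Uchl1, Aqp1, Cd34 and Crabp1 are 8 genes picked from the array data for a high signal in fibroblasts that express KSR1 and a lower signal when H-RasV12 is expressed with it. They were found as all probe sets (groups of array probes for 1 transcript) whose platform annotation names one of the genes. This gave 10 probe sets of 12422, and 8 genes of the 8251 named on the array. The cells were mouse embryonic fibroblasts, genotype KSR1 -/- on a DBA background, so that every group lacks the endogenous Ksr1 gene product. The cell lines carried GFP alone (the GFP line), GFP with the oncogenic Ras mutant H-RasV12 (the H-RasV12 line), GFP with re-expressed KSR1 (the KSR1 line), or GFP with KSR1 and H-RasV12 (the double line). Each group is 1 cell line on 3 arrays, and the labels name no separate cultures. The spread between arrays may therefore be technical, and a difference between lines cannot be told apart from a difference between separately made lines. In RNA from a whole culture, fewer cells of a kind and less RNA per cell cannot be told apart either.

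Ras proteins switch on the Raf, MEK and ERK kinases, and KSR1 is a scaffold that holds those kinases together, so that its amount sets how strongly Ras signals reach ERK. Oncogenic H-RasV12 is locked in its active state and can transform fibroblasts. The 8 genes belong to no common pathway. Cck encodes the peptide hormone cholecystokinin and Ramp3 a receptor partner for adrenomedullin and related peptides. Msln encodes mesothelin, a surface antigen of mesothelial cells. Gap43 is a growth cone protein and Uchl1 a ubiquitin hydrolase abundant in neurons. Aqp1 is a water channel, Cd34 a sialomucin of progenitor and endothelial cells that mesenchymal cells can also carry, and Crabp1 a cytosolic binding protein for retinoic acid.

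The name under which the genes were gathered, on with KSR1 and silenced by H-RasV12, held for only some of them. Cck, Gap43, Msln, Ramp3 and Uchl1 were low without KSR1 and high with it. Aqp1 and Cd34 were already bright in the GFP and H-RasV12 lines, and were low only in the double line. Crabp1 was brightest in the H-RasV12 line, which has no KSR1. Msln did not return to its GFP level in the double line. This grouping was made after the values were seen and carries no test.

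**Figure D1:**
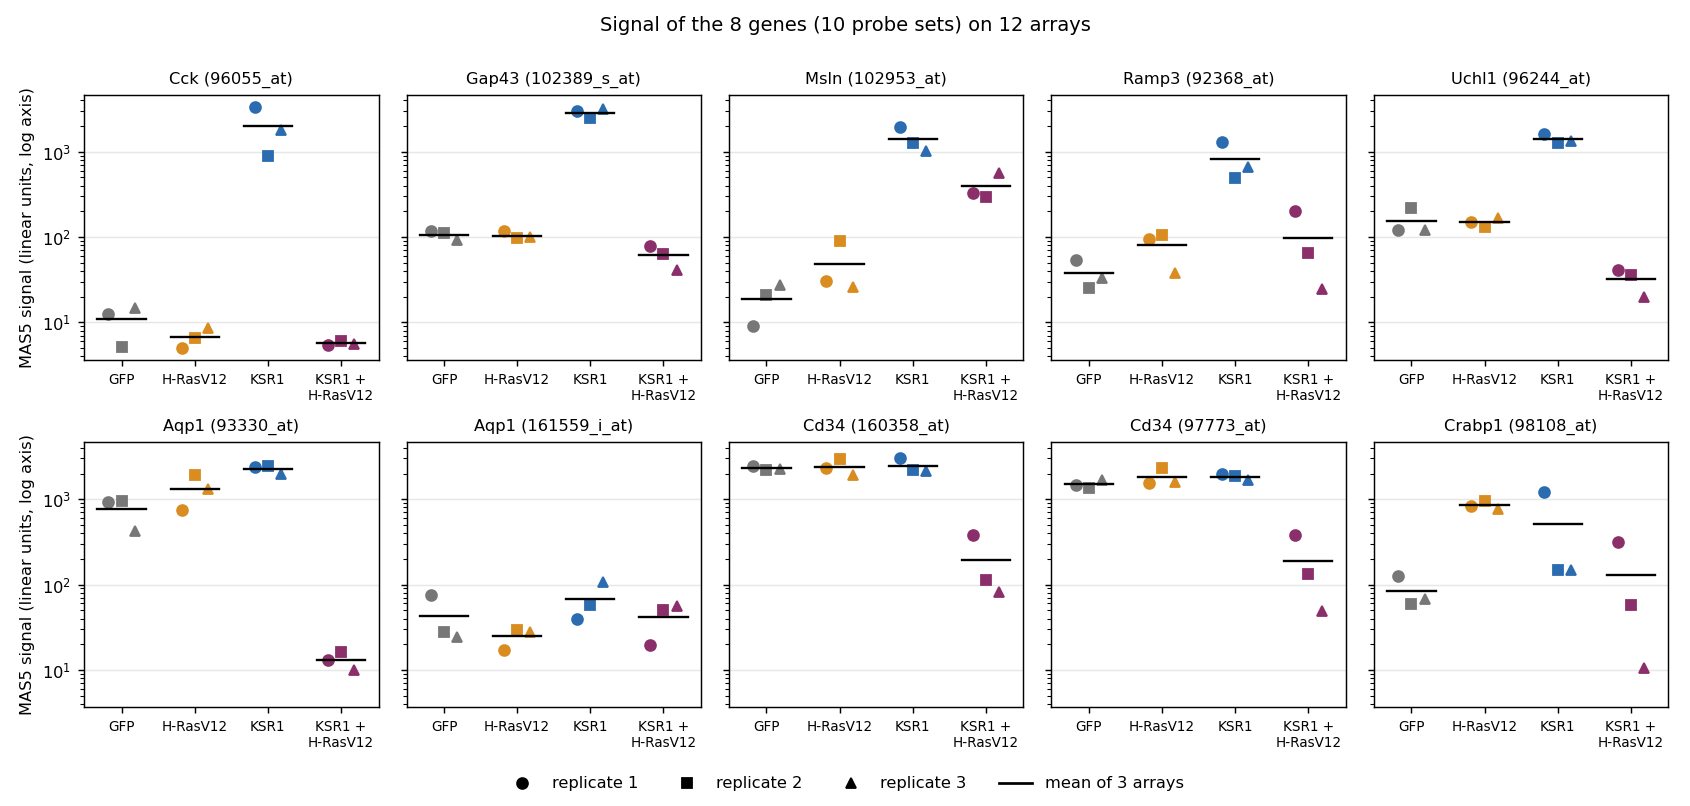
MAS5 signal (vertical log axis, linear units) of the 10 probe sets in the 4 cell lines; each point is 1 array, its shape the replicate number, and each bar the mean of 3 arrays. Cck, Gap43, Ramp3 and Uchl1 are high in the KSR1 line alone, Msln is highest there and intermediate in the double line, Aqp1 and both Cd34 probe sets are low in the double line alone, and Crabp1 is high on all 3 H-RasV12 arrays and on KSR1 replicate 1.

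The signals are MAS5 values, a brightness on a linear scale. Differences are given on the log2(signal + 23) scale, where the added 23 shrinks differences between low signals, with the standard error (SE) of limma, the linear model fitted to all probe sets. Of the 10 probe sets, 9 passed the filter on low values (3 or more of the 12 arrays with a signal over 181.4, the overall median). Of the 8 genes, 2 passed only through the KSR1 arrays, and Msln and Ramp3 only through the KSR1 and double-line arrays. The choice of the genes used the KSR1 and double-line arrays, so every difference that involves those arrays is a description with no test. Only the difference between H-RasV12 and GFP is taken from other arrays, although its filter and its estimate of the spread draw on all 12. For Crabp1 this difference too was known at the choice.

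Arrays of the same group correlated with r between 0.911 and 0.965 over the 6897 probe sets that passed the filter, whereas r was 0.808 to 0.956 across groups. In 3 of the 4 lines (GFP, KSR1 and double) replicate 1 stood apart in an 18S ribosomal RNA control, at 345, 395 and 146, while this control ran from 516 to 3312 elsewhere. The fibroblast collagen gene Col1a1 read between 7550 and 22324 in the other lines and 4299, 1921 and 178 in the double line. The collagen genes Col1a2 and Col3a1 did not share that fall from KSR1 to the double line, but were lower in both lines with KSR1. Col1a2 averaged 13693 with GFP, 11405 with H-RasV12, 5617 with KSR1 and 7579 in the double line. Col3a1 averaged 5698, 5230, 1668 and 1895 in the same order. The matrix gene Postn averaged 2569 with GFP, 1279 with H-RasV12, 15.7 with KSR1 and 20.9 in the double line. The platelet-derived growth factor receptor gene Pdgfra read between 1036 and 2343 on all 12 arrays. Its sister Pdgfrb averaged 449 with GFP, 301 with H-RasV12, 185 with KSR1 and 32.9 in the double line. Of 10 fibroblast markers past the filter, 3 were lower in the double line than in KSR1 (limma adjusted p under 0.05). Relative to H-RasV12, 7 of the 10 were lower, and 0 were higher in either comparison. Of all probe sets, 6.92% and 7.71% were lower. The probe sets of 3 of 13 fibroblast markers, Vim, Thy1 and Fap, stayed below the filter value on every array. The summed signal of the 13 was 44012 to 54625 with GFP, 40458 to 55161 with H-RasV12, 25674 to 30204 with KSR1 and 13931 to 22887 in the double line, and its part in the results was not tested. Of 7 leukocyte markers, Ptprc, Cd52, Lyz2 and Tyrobp stayed below the filter value throughout, and the sum of the 7 was 398 to 616 with GFP, 372 to 548 with H-RasV12, 669 to 1411 with KSR1 and 454 to 563 in the double line. The sum includes Cd53, which read 657, 134 and 241 with KSR1. Cd53 averaged 41.6 with GFP, 53.9 with H-RasV12 and 88.3 in the double line.

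The Ksr1 probe set that followed the labels read 144, 21.1 and 37.5 in the GFP line, 20.2, 32.2 and 14.2 in the H-RasV12 line, 933, 1605 and 207 in the KSR1 line and 301, 262 and 141 in the double line. The other Ksr1 probe set read 180 to 366 on all 12 arrays. By the first, KSR1 was lower on the double-line arrays than on KSR1 replicates 1 and 2. KSR1 replicate 3 lay inside the range of the double line.

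Cholecystokinin transcripts were high in the KSR1 line alone. Cck read 12.6, 5.09 and 14.7 in the GFP line and 5.03, 6.59 and 8.69 in the H-RasV12 line. It read 3376, 893 and 1813 in the KSR1 line and 5.42, 6.08 and 5.60 in the double line. The KSR1 arrays lay far above the other 9, which overlapped with each other near the bottom of the array's range. The difference between KSR1 and GFP was 5.74 ± 0.47, and that between the double line and KSR1 was -5.96 ± 0.47. Since the low Cck values lie below the added 23, their size depends on it, and they became 6.60 and -7.01 with 8 added and 4.08 and -4.15 with 100 added. Cck and Gap43 followed each other closely, with a Pearson r of 0.98 over the 12 arrays.

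Ramp3, which carries the calcitonin receptor-like receptor to the cell surface and tunes it toward adrenomedullin, had the same form on a smaller scale. Its signal was 54.4, 25.5 and 33.2 with GFP, 96.1, 106 and 37.5 with H-RasV12, 1288, 486 and 663 with KSR1, and 201, 65.1 and 24.4 in the double line. All KSR1 arrays were above all others, while the double line spanned the values of both lines without KSR1. The difference between KSR1 and GFP was 3.69 ± 0.52, and that between the double line and GFP 0.71 ± 0.52.

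The upstream sequences of these genes are shown because the genes rose and fell together in the KSR1 line and the double line. RefSeq promoter windows (GRCm38.p6) were found for 6 of the 8 genes, not for Gap43 and Msln. Each window printed here holds the 250 bases before the annotated start, 5′ to 3′ on the gene's strand. Capitals mark matches, on either strand, to the 7 motifs searched. These were the E-box CACGTG, the full cyclic AMP response element TGACGTCA, its variant TGCGTCA, the AP-1 site TGANTCA, the GC box GGGCGG, the TATA box TATAAA and the ETS core CCGGAA. No match overlapped another. The motifs were chosen after the windows were seen. The Cck window is chr9:121495695-121495944 on the minus strand, and the Ramp3 window chr11:6658283-6658532 on the plus strand.
Cck: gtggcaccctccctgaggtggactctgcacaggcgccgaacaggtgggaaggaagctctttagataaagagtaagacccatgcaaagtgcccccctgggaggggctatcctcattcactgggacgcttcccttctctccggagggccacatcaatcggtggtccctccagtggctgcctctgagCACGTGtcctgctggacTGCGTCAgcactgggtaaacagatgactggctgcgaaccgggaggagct
Ramp3: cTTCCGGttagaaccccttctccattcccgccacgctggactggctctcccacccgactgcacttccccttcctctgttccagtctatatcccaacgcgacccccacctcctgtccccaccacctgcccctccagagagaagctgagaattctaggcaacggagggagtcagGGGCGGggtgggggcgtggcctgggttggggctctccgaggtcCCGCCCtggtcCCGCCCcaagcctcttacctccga

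The Cck window held the E-box, starting 66 bases before the start, and the variant cyclic AMP response element, starting 49 bases before it, and no other motif searched. Of all 32851 windows of this length, 6.02% held CACGTG and 1.75% held TGCGTCA. Neither was found in the other 5 windows of these genes. The Ramp3 window held 3 GC boxes and 1 ETS core at its far end, and the shares of all windows with these were 32.7% and 12.0%. The Uchl1 window held none of the 7 motifs. The GC box was in 3 of the 6 windows (Ramp3, Aqp1 and Crabp1), and no motif searched was in more than 1 of the Cck, Ramp3 and Uchl1 windows. A match is a stretch of letters and not a measured binding site.

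Msln kept part of its signal in the double line. Mesothelin is anchored to the membrane of mesothelial cells and is also found on many carcinomas. Its probe set read 9.17, 20.7 and 27.1 with GFP, 30.9, 89.6 and 25.9 with H-RasV12, 1924, 1270.3 and 1021 with KSR1, and 331, 296 and 569 in the double line. The 4 lines fell into 3 levels without overlap, KSR1 over the double line over both lines without KSR1, which overlapped with each other. The difference was -1.77 ± 0.37 between the double line and KSR1 and 3.30 ± 0.37 between the double line and GFP. It was the only member whose double-line arrays all exceeded the GFP arrays.

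Gap43, which organises actin at the growth cones of growing axons, had little spread between the KSR1 arrays. It read 117, 111 and 92.3 with GFP and 117, 96.5 and 98.8 with H-RasV12, values that overlapped throughout. It read 2986, 2475 and 3166 with KSR1 and 79.6, 64.1 and 40.6 in the double line. All double-line arrays were below all arrays of the lines without KSR1. The difference was 4.48 ± 0.23 between KSR1 and GFP, -5.12 ± 0.23 between the double line and KSR1 and -0.64 ± 0.23 between the double line and GFP.

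Uchl1, which trims ubiquitin from small adducts, went lower still relative to its starting level. It read 122, 219 and 122 with GFP, 152, 131 and 169 with H-RasV12, 1596, 1267 and 1350.5 with KSR1, and 40.8, 35.6 and 20.0 in the double line. All double-line arrays were again below all arrays without KSR1, with a difference of -1.66 ± 0.26 from GFP, beside 3.05 ± 0.26 between KSR1 and GFP. The Uchl1 profile stood between those of Gap43 (r = 0.95) and Aqp1 (r = 0.81).

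The water channel gene Aqp1 was bright in every line except the double line. Its bright probe set read 933, 959.5 and 429 with GFP, 742, 1932 and 1312 with H-RasV12, and 2386, 2479 and 1976 with KSR1. In the double line it read 13.2, 16.2 and 9.87, a difference of -5.99 ± 0.33 from KSR1. With 8 added in place of 23 this was -6.77, and with 100 added -4.39, since the low values lie below the added amount. The KSR1 arrays were above all GFP and H-RasV12 arrays, by 1.61 ± 0.33 over GFP, but this gap was small beside the distance to the double line, which differed from GFP by -4.38 ± 0.33. The other Aqp1 probe set ran from 17.3 to 107 over the 12 arrays, never above the filter value, and did not separate the double line from the rest.

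Cd34 was bright in the 3 lines other than the double line and far lower there, on both of its probe sets. The first read 2459, 2209 and 2251 with GFP, 2328, 2935 and 1916 with H-RasV12, 3029.8, 2218 and 2126 with KSR1, and 384, 113 and 82.5 in the double line. The second had group means of 1499 ± 173 (SD, n = 3) with GFP, 1825 ± 440.0 with H-RasV12, 1843 ± 139 with KSR1 and 187 ± 172 in the double line. Every double-line array was below all other arrays in both probe sets. The other 3 lines overlapped with each other in the first; in the second the lowest KSR1 array (1689) lay just above the highest GFP array (1683), while the H-RasV12 line overlapped with both. The difference between KSR1 and GFP was 0.07 ± 0.37 and 0.30 ± 0.42. The double line differed from GFP by -3.69 ± 0.37 and -3.19 ± 0.42. Without double-line replicate 1, the brightest of the 3, these became -4.28 ± 0.22 and -3.84 ± 0.28, and without double-line replicate 3 the second became -2.60. Of the other endothelial and progenitor markers on the array, 11 of 14 stayed below the filter value on every array, among them Cdh5, Tie1, Tek, Vwf, Emcn and Podxl, and the summed signal of the 14 was 886 to 1139.6 with GFP, 788 to 983 with H-RasV12, 833 to 1158 with KSR1 and 673 to 864 in the double line.

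The Cd34 window, shown because this gene, like Aqp1, was on without KSR1 and low in the double line, is chr1:194938571-194938820 on the plus strand. It held none of the 7 motifs, and 46.4% of its bases were G or C, the least of the 6 windows, against a median of 52.4% over all windows and 65.2% in the Ramp3 window.
Cd34: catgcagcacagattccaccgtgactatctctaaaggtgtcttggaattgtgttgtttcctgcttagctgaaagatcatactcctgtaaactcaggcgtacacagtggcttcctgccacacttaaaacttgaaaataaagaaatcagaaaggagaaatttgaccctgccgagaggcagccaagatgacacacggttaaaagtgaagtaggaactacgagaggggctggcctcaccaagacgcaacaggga

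Crabp1, whose protein holds retinoic acid in the cytosol, departed from the others. It read 126, 59.0 and 67.6 with GFP and 825, 948 and 768 with H-RasV12. In the KSR1 line it read 1228 on replicate 1 but 149 and 147 on replicates 2 and 3. In the double line it read 318, 57.8 and 10.5. All H-RasV12 arrays were above all GFP and all double-line arrays. The high level in the KSR1 line by which the gene was chosen rested on replicate 1, one of the arrays that stood apart in the 18S control, and the KSR1 and double-line arrays overlapped. The difference between KSR1 and GFP was 1.68 ± 0.76, and 0.72 ± 0.67 without KSR1 replicate 1. That between the double line and KSR1 was -1.77 ± 0.76, and -0.81 ± 0.67 without that array. Without double-line replicate 1 it was -2.67, and without double-line replicate 3 it was -0.9998. The double line differed from the H-RasV12 line by -3.15 ± 0.76. The part of the odd arrays in the Crabp1 values was not tested.

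The Crabp1 window is shown because this gene was highest in the H-RasV12 line and not in the KSR1 line. It is chr9:54764498-54764747 on the plus strand, with 63.6% G and C and 5 GC boxes, at 178, 86, 49, 25 and 12 bases before the start, the most of the 6 windows.
Crabp1: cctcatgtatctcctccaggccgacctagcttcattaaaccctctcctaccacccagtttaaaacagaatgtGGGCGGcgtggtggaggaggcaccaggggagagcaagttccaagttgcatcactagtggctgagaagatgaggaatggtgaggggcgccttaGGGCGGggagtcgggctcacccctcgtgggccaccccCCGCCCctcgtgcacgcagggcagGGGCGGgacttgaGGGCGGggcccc

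H-RasV12 without KSR1 was the comparison whose difference did not enter the choice of the genes, except that Crabp1 was known to differ in it. It sets these genes under oncogenic Ras beside their level in the same KSR1-null background. Of the 8 genes, 0 passed the test (limma adjusted p under 0.05), and 2, Aqp1 and Crabp1, had an unadjusted p under 0.05. Since Crabp1 was known to differ beforehand, its place in these counts is no result. Of all 6897 probe sets, 0.0725% passed, all of them lower, and 5.96% had an unadjusted p under 0.05. Cck and Gap43 had passed the filter only through the KSR1 arrays. Without these 2 genes the counts were 0 and 2 of 6. Msln and Ramp3 had passed only through KSR1 and double-line arrays, and Uchl1 through the KSR1 arrays and GFP replicate 2 (219). By the GFP and H-RasV12 arrays alone, 3 of the 8 genes passed the filter. Most of the 8 thus entered this test through arrays used to choose them. The 95% intervals of the differences (unadjusted) ran from -0.52 to 0.46 for Gap43, from -0.55 to 0.57 for Uchl1 and from -0.76 to 0.82 for the brighter Cd34 probe set. They ran from -0.09 to 1.48 for Msln, from -0.40 to 1.83 for Ramp3 and from 0.04 to 1.45 for Aqp1 (limma adjusted p = 0.817). Cck lay below the added 23 on all 6 arrays, so that its interval bounds no change in signal. The Msln GFP values, 9.17 to 27.1, lay near or below it as well.

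**Figure D2:**
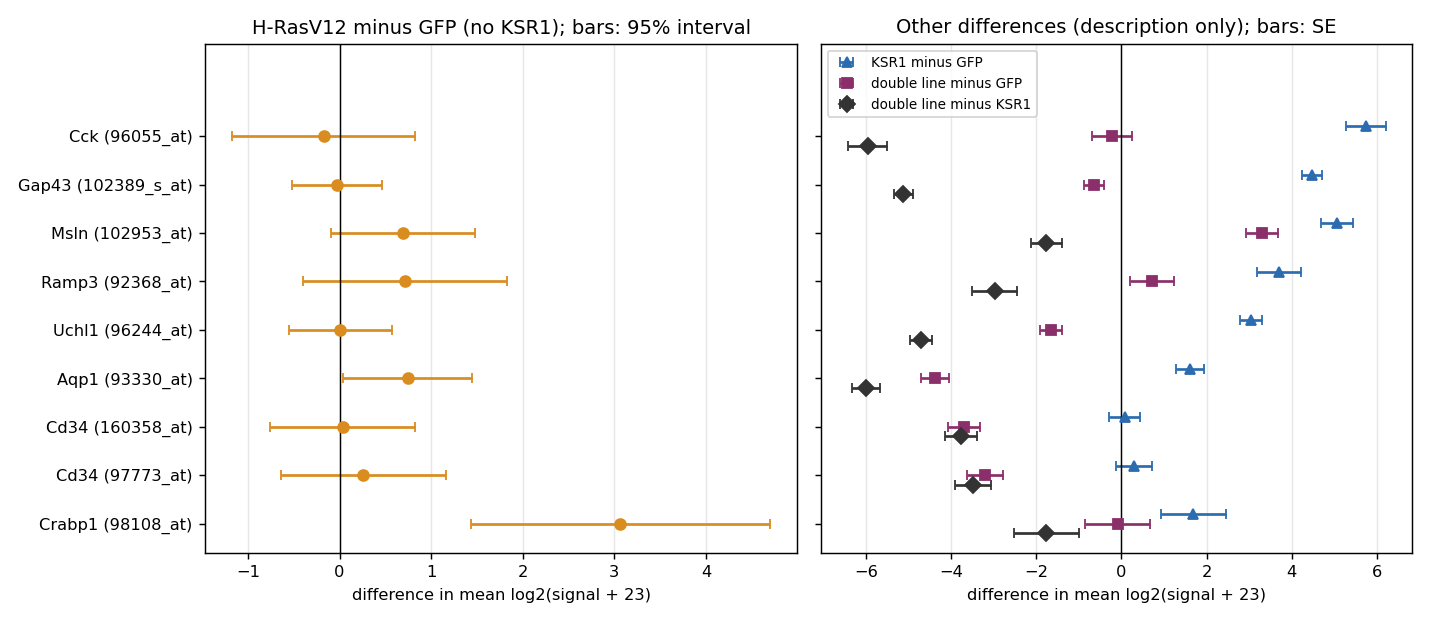
Differences in mean log2(signal + 23) for the 9 probe sets that passed the filter. The left panel shows H-RasV12 minus GFP with 95% intervals, where Crabp1 stands at 3.07 and the others between -0.17 and 0.74; the right panel shows KSR1 minus GFP, the double line minus GFP and the double line minus KSR1 with SE, where Aqp1 and Cd34 lie below GFP in the double line and Msln above it.

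Crabp1 had the largest positive difference of all 6897 probe sets for H-RasV12 without KSR1, 3.07 ± 0.76 with an interval from 1.43 to 4.70 (limma adjusted p = 0.236). That Crabp1 differs without KSR1 was known when it was chosen. Its rank and its p-values, in this fit and in the alternatives below, are therefore descriptions and lend no support. The shared spread of the fit includes the KSR1 and double-line arrays, where the SD of Crabp1 was 624 and 166, against 36.5 with GFP and 92.2 with H-RasV12. Fitted on the 6 GFP and H-RasV12 arrays alone, the same difference had an SE of 0.25 and passed (limma adjusted p = 0.00214), as the 1 probe set called higher there. It also passed with the replicate number as a block (limma adjusted p = 0.0451) and with replicates 2 and 3 alone without the filter, which was added once the values were known (3.35 ± 0.42, limma adjusted p = 0.0144). Over the other alternatives in which it was tested it ran from 0.0906, without double-line replicate 1, to 0.797, without H-RasV12 replicate 2. H-RasV12 arrays did not overlap with GFP arrays for 1 of the 8 genes, Crabp1, where 6.73% of all probe sets had every H-RasV12 array above every GFP array.

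**Figure D3:**
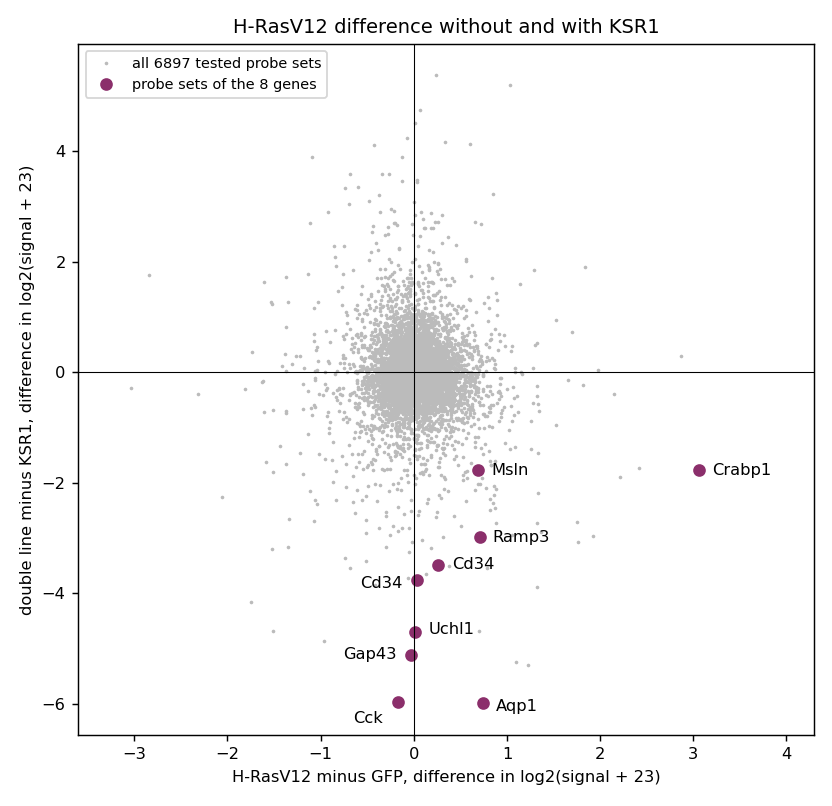
Each point is 1 of 6897 probe sets, with the difference H-RasV12 minus GFP on the horizontal axis and double line minus KSR1 on the vertical axis, both in log2(signal + 23); the axes share no arrays. The 9 probe sets of the 8 genes lie below 0 vertically, by which they were chosen, and between -0.17 and 0.74 horizontally except Crabp1 at 3.07.

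Relative to GFP, the double line was lower without overlap for Gap43, Uchl1, Aqp1 and Cd34, higher for Msln, and overlapping for Cck, Ramp3 and Crabp1. Among all probe sets, 14.4% had every GFP array above every double-line array and 13.9% the reverse. Relative to KSR1, which the choice used, 7 of the 8 genes were lower without overlap, where 14.1% of all probe sets were, and Crabp1 overlapped. By the brightest probe set of each gene, as in these counts, KSR1 arrays were all above GFP arrays for 7 genes, all but Cd34, where 14.9% of all probe sets were. H-RasV12 arrays were all above double-line arrays for 5 genes (Gap43, Uchl1, Aqp1, Cd34 and Crabp1), where 15.5% were. The median over the 8 genes was -0.43 for the double line minus GFP, -1.14 for the double line minus H-RasV12 and -4.24 for the double line minus KSR1. Over all probe sets these medians were -0.02, -0.05 and -0.07.

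Across the 12 arrays the profiles sorted in the same way. Cck, Gap43, Ramp3 and Uchl1 correlated with each other with r between 0.79 and 0.98, and Msln with these 4 with r between 0.47 and 0.78. Aqp1 and Cd34 correlated with r = 0.93 and had r of -0.06 and -0.26 with Msln. Crabp1 had r between -0.01 and 0.57 with the others. These values describe 12 arrays that fall into 4 lines and share their scaling, so they mostly reflect the 4 group levels.

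**Figure D4:**
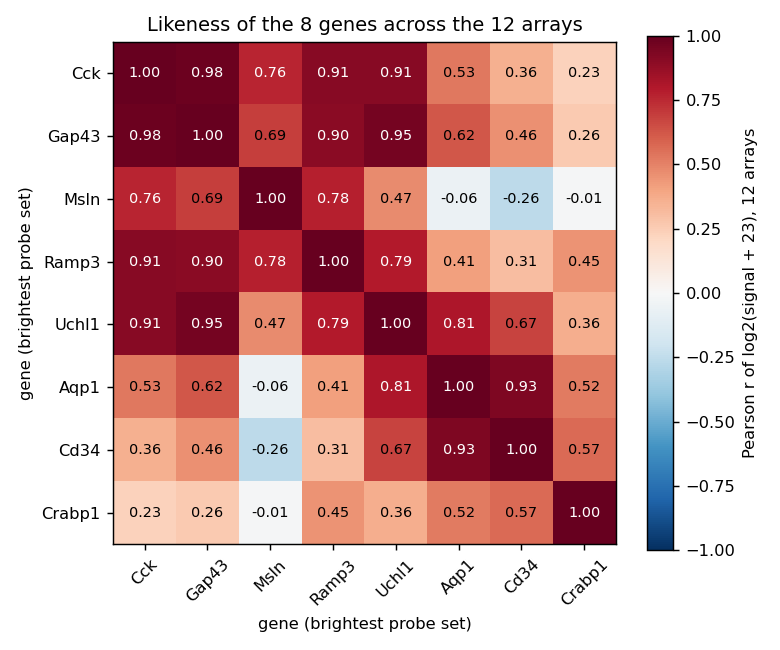
Pearson correlation of log2(signal + 23) over the 12 arrays between the brightest probe sets of the 8 genes, on a colour scale from -1 to 1. Cck, Gap43, Ramp3 and Uchl1 form 1 block with r of at least 0.79, Aqp1 and Cd34 another at 0.93, and Crabp1 stays at or below 0.57 with all others.

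By the same measure, the genes outside the list most like Cck and Gap43 were the chemokine gene Cxcl2 (r = 0.98 and 0.97) and Chrnb1, a muscle acetylcholine receptor subunit (r = 0.97 and 0.98). Cxcl2 averaged 506 with KSR1 and 20.2 in the double line. The uridine phosphorylase gene Upp1 was most like Msln (r = 0.96), with a mean of 1422 with KSR1 and 310 in the double line. The collagen gene Col18a1 was most like Ramp3 (r = 0.95), and the endothelial protein C receptor gene Procr most like Uchl1 (r = 0.96). The prostacyclin synthase gene Ptgis was most like Aqp1 (r = 0.96), at means of 627 with GFP, 509 with H-RasV12, 957 with KSR1 and 87.3 in the double line. The galactosaminyltransferase gene B3galnt1 followed Cd34 (r = 0.99), at 352, 346, 314 and 25.6 in the same order. The best match of Crabp1 was the proteoglycan gene Dcn, with a lower r of 0.86. The gene most like the mean profile of all 8 was the mesenchymal transcription factor gene Twist2 (r = 0.96), at 1397, 1952, 3477 and 1223 in that order.

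The 8 genes are a selection and not the full set with this pattern. Of the 6897 probe sets, 84 had a KSR1 mean of at least 508, the lowest among the 8 genes, and a difference of the double line from KSR1 at least as far below 0 as the smallest among them (-1.77), and 9 of the 84 belonged to the 8 genes. That lowest mean was of Crabp1 and rested on KSR1 replicate 1 (1228, against 149 and 147), so the count depends on that array. Among the other named genes with a KSR1 mean of at least 508, the largest falls were those of the activin antagonist gene Fst (-4.86 ± 0.41), the insulin-like growth factor binding protein gene Igfbp4 (-4.69 ± 0.57), the transcript U90926 (-4.69 ± 0.35), the morphogen gene Bmp4 (-4.15 ± 0.44) and the prostaglandin synthase gene Ptgs2 (-3.73 ± 0.41). At the edge of that range stood Cxcl1 (-1.77) just inside and Il1r1 (-1.76) just outside.

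The close relatives and partners of the 8 genes were measured on the same arrays, and Marcksl1 was the only one of those tested that was called lower in the double line than in KSR1. Ramp1, a sister of Ramp3, stayed between means of 184 and 232 in all lines. Ramp2, another, averaged 89.6 with GFP, 225 with H-RasV12, 40.8 with KSR1 and 44.8 in the double line. The double line differed from the H-RasV12 line by -1.97 ± 0.40. Because Ramp2 passed the filter only through the H-RasV12 arrays, this difference is a description with no test. Calcrl, the receptor that needs a RAMP, stayed below the filter at means between 7.95 and 78.2. Adm, the adrenomedullin ligand, moved opposite to Ramp3. Adm averaged 49.8 ± 37.8 (SD, n = 3) with KSR1 and 1970 ± 1163 in the double line (4.75 ± 0.49, limma adjusted p = 1.99e-05).

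The receptor Cckbr, which binds cholecystokinin, stayed between means of 489 and 650 in all lines, and the other receptor, Cckar, between 7.72 and 21.4. Crabp2, the other cellular retinoic acid binding protein, averaged 650.1 with GFP, 1043 with H-RasV12, 817 with KSR1 and 1070.2 in the double line, and H-RasV12 did not differ from GFP past the threshold (0.68 ± 0.19, limma adjusted p = 0.305). The aquaporin genes Aqp2, Aqp4, Aqp7, Aqp8 and Aqp9 all stayed below the filter. Uchl5, a proteasome-bound relative of Uchl1, rose with KSR1 (0.92 ± 0.26, limma adjusted p = 0.0308) and averaged 1132 with KSR1 and 1333 in the double line. That call ended in 7 of 22 alternatives (median centring, no filter, replicates 2 and 3 alone with no filter, and leaving out replicate 1 or 3 of GFP, or KSR1 replicate 2 or 3), with limma adjusted p up to 0.122. Of the growth cone proteins akin to Gap43, Basp1 averaged 4322 with KSR1 and 6723 in the double line. Marcks fell with KSR1 relative to GFP (-1.64 ± 0.30, limma adjusted p = 0.0019), and Marcksl1 fell in the double line relative to KSR1 (-1.48 ± 0.25, limma adjusted p = 0.000845).

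Wider lists of related genes, without the 8 themselves, covered mesothelial, neuronal and growth cone, endothelial and progenitor, retinoid, peptide hormone and calcitonin-family, and aquaporin and UCH genes. Together 36 of their genes passed the filter. For the double line against KSR1, 4 of the 36 were higher and 6 lower, where 8.16% of all probe sets were called higher and 6.92% lower. For KSR1 against GFP, 4 were higher and 4 lower, where 4.97% and 6.81% were. For H-RasV12 against GFP, 0 of the 36 passed in limma, and 9 (25%) had an unadjusted p under 0.05, where 0.0725% and 5.96% of all probe sets did. For the difference between the H-RasV12 responses with and without KSR1, 5 were higher and 4 lower, where 4.16% and 3.54% of all probe sets were. The median difference of the double line from KSR1 was -0.19 over the 36 genes and -0.07 over all probe sets. Of the 12 neuronal and growth cone genes that passed the filter, Eno2 and Ncam1 were higher in the double line than in KSR1, and Dpysl3, Map2, Marcksl1, Nes and Stmn1 lower. The intermediate filament gene Nes was closest to the pattern of Gap43, rising with KSR1 (2.75 ± 0.29, limma adjusted p = 2.40e-05) and falling in the double line (-2.53 ± 0.29, limma adjusted p = 4.47e-05). The growth cone gene Dpysl3 rose with KSR1 by 1.11 ± 0.22 and differed by -1.60 ± 0.22 in the double line relative to KSR1. The microtubule-associated protein gene Map2 fell in the double line (-1.80 ± 0.44, limma adjusted p = 0.0130, or 0.0512 without double-line replicate 2), whereas the neuronal enolase gene Eno2 rose there (2.04 ± 0.31).

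Of the other mesothelial markers on the array, 6 of 11, Wt1, Krt7, Krt8, Krt18, Calb2 and Bnc1, stayed below the filter value on every array. The keratin gene Krt19 rose with KSR1 (1.54 ± 0.31) and again in the double line (1.58 ± 0.31), to a mean of 1209. The summed signal of the 11 was 2306 to 6311 with GFP, 2119 to 3236 with H-RasV12, 5725 to 10789 with KSR1 and 6705 to 13196 in the double line, and its part in the Msln values was not tested. Among the retinoid genes the receptor gene Rarg fell in the double line (-1.49 ± 0.46, limma adjusted p = 0.0406). The call ended in 7 of 22 alternatives (no filter, no intensity trend, and leaving out H-RasV12 replicate 3, KSR1 replicate 1 or 2, or replicate 2 or 3 of the double line), with limma adjusted p up to 0.172.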

How the data were processed

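Total RNA from 12 samples (3 for each cell line) was measured on Affymetrix arrays, per the labels. The deposited values are MAS5 intensities on a linear scale, per the submitters' processing notes; the version is not given in the sources used here. They were not scaled further. Of 12488 probe sets, 66 were controls and were left out, and 10833 of the others had 1 gene symbol, 396 several and 1193 none. Symbols were updated by gene identifier (10817 found). Before log2, 23 was added to each value (a pseudocount set from percentile 20). One limma fit (limma 3.58.1, R 4.3.3) with 4 group means, 8 residual degrees of freedom and an intensity trend was made on 6897 probe sets, with two-sided tests and Benjamini-Hochberg adjustment over all of them. It was tested on simulated data.

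The members, lists and tests were chosen with earlier results of these data known. Named besides the 8 genes were both Ksr1 probe sets, fixed relatives, the largest called changes in each list, the most similar profiles, and the largest falls among other named genes as bright in the KSR1 line. The text describes a selection of these. List genes and relatives are given by their brightest probe set. Alternatives covered normalization, pseudocount, filter, trend, replicate block and arrays left out. By a check of the data, and not by the labels, same-numbered arrays of GFP and KSR1, and of KSR1 and the double line, deviated from their group means together (r of at least 0.162 in every pair). The number of arrays limits the precision.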

Additional observations from a re-analysis of the deposited data

Results flagged for a closer look

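For genes outside the 8, the response to H-RasV12 with KSR1 was compared with the response without it by the interaction term of the limma fit. Of the 36 list genes, 9 differed past the threshold, and no other relative did. The response was more negative with KSR1 for Dpysl3 (-2.42 ± 0.31, limma adjusted p = 0.000362), Nes (-2.78 ± 0.41, limma adjusted p = 0.000984), Map2 (-2.35 ± 0.63, limma adjusted p = 0.0339) and the tubulin-binding protein gene Stmn1 (-1.08 ± 0.28, limma adjusted p = 0.0285). It was more positive for Adm (4.68 ± 0.69, limma adjusted p = 0.00102), Krt19 (1.93 ± 0.44, limma adjusted p = 0.0147), Eno2 (2.51 ± 0.44, limma adjusted p = 0.00286), the adhesion molecule gene Ncam1 (1.78 ± 0.30, limma adjusted p = 0.00216) and the fatty acid binding protein gene Fabp5 (1.01 ± 0.25, limma adjusted p = 0.0241).

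The calls for Map2, Stmn1 and Fabp5 ended in 9 of 17, 10 of 22 and 7 of 22 alternatives, with limma adjusted p up to 0.111, 0.136 and 0.0656. Among single arrays, that for Map2 ended without H-RasV12 replicate 3, any KSR1 array or double-line replicate 2. That for Stmn1 ended without GFP replicate 3, H-RasV12 replicate 1 or 2, KSR1 replicate 2 or 3, or double-line replicate 2 or 3. That for Fabp5 ended without replicate 2 or 3 of GFP or of H-RasV12, KSR1 replicate 2 or double-line replicate 3.

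The same term was not tested for the 8 genes, or for genes named for their likeness to them or for their fall, since it contains the comparison by which they were chosen. The values of the 8 ran from -6.74 for Aqp1 to -2.46 for Msln. Groups of 3 arrays are too small for a test of single arrays.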

How the results depend on the processing

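The count of the 8 genes that passed for H-RasV12 against GFP was 0. It was 1 (Crabp1) with the replicate block, 1 with the GFP and H-RasV12 arrays alone, where only 3 of the 8 passed the filter, and 1 with replicates 2 and 3 alone without the filter. It was 0 in all other alternatives, leaving out any 1 array included. Crabp1 was known to differ in this comparison when it was chosen, so its calls are descriptions. Same-numbered GFP and H-RasV12 arrays correlated in their deviations with r of -0.0206, 0.00333 and 0.187, so the numbers were not taken as pairs in that comparison. Between GFP and KSR1, and between KSR1 and the double line, every same-numbered pair had r of at least 0.162. There the block gave 5 higher and 5 lower of the 36 list genes, and 4 higher and 6 lower, and ended no call of a named gene. Of the 12 arrays, 10 correlated best with an array of their own number. Of 1102 recomputed differences of the 8 genes, 25 changed sign, all of them differences that lay between -0.09 and 0.07. Of 915 recomputed differences with no test, 77 moved by more than the spread between arrays, 31 of them with a pseudocount of 100 and 15 with one of 8; the cause was not tested. For KSR1 against GFP and for the double line against KSR1, the counts of list genes stayed within 1.5 times of their values under every alternative. Between 29 and 36 of the list genes passed the filter in these. This does not extend to the interaction term, where the calls for both Map2 and Stmn1 ended with median centring. The count over all probe sets for H-RasV12 against GFP, 5, ran from 1 to 48, with 10 under the block. For KSR1 against GFP it was 813 and ran from 481 to 1047, and for the double line against KSR1 it was 1040 and ran from 685 to 1290. The signals give no detection calls, so values near the bottom of the range have no certain order.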
